A study of Mus musculus with 6 samples.

Results

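The 35 genes described here are markers of microglia, the resident macrophages of the brain, and of macrophages elsewhere in the tissue. They were chosen by name and not by a cut on expression, but with earlier results of these data known. All 35 were found among the 52550 gene identifiers of the count tables. The libraries hold polyadenylated RNA from 6 mouse pups (C57BL6/J, postnatal day 2), and each library comes from 1 hemisphere of the cortex. All 6 pups carried floxed alleles of Slc7a5, which encodes the large neutral amino acid carrier LAT1. The control group was Slc7a5fl/fl; Emx1Cre- (n = 3) and the knockout group Slc7a5fl/fl; Emx1Cre+ (n = 3). In each group the libraries bear the letters A, B and C. Every knockout pup carried Cre and no control pup did, so an effect of Cre and an effect of the deletion cannot be told apart. The comparison asks whether RNA of microglia and macrophages differed in a cortex in which another lineage had been targeted.

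Microglia descend from precursors of the yolk sac that enter the brain before birth, whereas Emx1-driven Cre acts in progenitors of the dorsal forebrain, which give rise to excitatory neurons and astrocytes of the cortex. Microglia depend on signalling through the CSF1 receptor, sense nucleotides and fractalkine from neighbouring cells, and signal through immune receptors that share the adaptor TYROBP. In the early postnatal cortex they clear dying cells and supply the complement component C1q, which can tag synapses for removal. In RNA of whole cortex, fewer cells of a type and less RNA per cell cannot be told apart.

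Gene counts ran from 8249436 to 10372582 per library. Slc7a5 itself lay at 20.2, 40.6 and 26.0 CPM (read counts scaled to library size) in controls and at 15.6, 9.35 and 11.4 CPM in the knockouts, here and below in the order A, B, C. The genotypes did not overlap, but the log2 change of -1.25 ± 0.28 (SE) missed the threshold of 0.05 (adjusted p = 0.400, edgeR's quasi-likelihood test, Benjamini-Hochberg over the genes tested). DESeq2 called it lower in the knockout (adjusted p = 0.000430). Paired by letter, neither tool did, with adjusted p of 0.421 in edgeR and 0.465 in DESeq2. Reads outside annotated exons were 22.5 to 26.5% of mapped reads in controls and 27.4 to 27.9% in knockouts. The part of this difference in the results below was not tested. The 7 markers of excitatory neurons of the cortex summed to 1916 to 2261 CPM, and the 8 red cell markers to 387 to 545 CPM. Libraries with the same letter deviated together from their group means, so a fit paired by letter is given beside the unpaired one. Xist stood at 916 and 959 CPM in the letter B libraries and at no more than 2.95 CPM in the other 4, so both letter B pups differ from the rest in this X-linked RNA.

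Upstream sequence was read for the members from RefSeq promoters on GRCm38.p6, as the 250 bases before each start site. It was found for 27 of the 35 members. GAGGAA, letters found in sites of the myeloid factor PU.1 (the product of the member Spi1), was searched on both strands. It occurred in 18 of these 27 windows (66.7%) and in 7639 of all 32851 windows in the table (23.3%). Each member gave 1 window, the one nearest its GENCODE start, whereas the table's windows were counted without such a choice. The shares are thus of unlike units. No limit on exon bases was set for either share. The matched windows of Laptm5, Hpgds, C1qc, Fcrls and Csf3r hold 191, 178, 151, 136 and 109 exon bases. The match is a description of letters and not a measured binding site. The windows below were picked from those that hold the letters and have at most 30 exon bases. They are Fcgr3, the member called in the paired fit, C1qb and Trem2 as examples of the complement and adaptor groups, and Mrc1 and Pf4, which were low in letter A of both genotypes. Among the 9 members without a match were Siglech, Lyz2, Cx3cr1 and Sall1, whose values are given below. All 250 bases of the Cx3cr1 window are exon bases, as are those of P2ry12, which is also without a match. The RefSeq start of Cx3cr1 lies 1583 bases from the GENCODE start. The sequence before that outer start of Cx3cr1 was not searched. Sequences run 5′ to 3′ on the gene's strand, and capitals mark GAGGAA or its reverse complement TTCCTC.
Fcgr3, chr1:171059404-171059653, minus strand: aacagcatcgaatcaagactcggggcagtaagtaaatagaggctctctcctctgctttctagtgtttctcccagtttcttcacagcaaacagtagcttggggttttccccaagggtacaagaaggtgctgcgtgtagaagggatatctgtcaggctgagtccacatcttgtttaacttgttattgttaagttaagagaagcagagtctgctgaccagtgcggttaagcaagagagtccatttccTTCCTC
C1qb, chr4:136886201-136886450, minus strand: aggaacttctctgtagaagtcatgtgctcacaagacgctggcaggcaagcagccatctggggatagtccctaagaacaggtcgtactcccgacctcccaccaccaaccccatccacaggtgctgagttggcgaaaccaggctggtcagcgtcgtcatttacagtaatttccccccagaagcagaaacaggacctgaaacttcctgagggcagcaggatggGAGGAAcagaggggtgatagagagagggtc
Trem2, chr17:48346151-48346400, plus strand: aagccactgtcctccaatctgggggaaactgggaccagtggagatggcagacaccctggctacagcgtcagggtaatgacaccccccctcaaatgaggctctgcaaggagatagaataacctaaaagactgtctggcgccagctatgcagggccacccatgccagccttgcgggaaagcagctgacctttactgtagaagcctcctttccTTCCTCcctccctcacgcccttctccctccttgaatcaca
Mrc1, chr2:14229164-14229413, plus strand: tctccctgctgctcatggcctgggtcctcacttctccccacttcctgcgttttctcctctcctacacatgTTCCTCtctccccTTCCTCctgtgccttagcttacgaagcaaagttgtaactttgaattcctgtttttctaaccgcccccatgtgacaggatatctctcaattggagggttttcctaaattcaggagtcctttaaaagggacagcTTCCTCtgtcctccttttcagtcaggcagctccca
Pf4, chr5:90772185-90772434, plus strand: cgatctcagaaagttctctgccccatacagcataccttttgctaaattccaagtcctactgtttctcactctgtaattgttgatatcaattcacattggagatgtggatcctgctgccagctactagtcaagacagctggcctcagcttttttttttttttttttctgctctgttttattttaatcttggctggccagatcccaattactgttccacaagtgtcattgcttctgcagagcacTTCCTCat
The nearest match began 6 bases before the RefSeq start in Fcgr3, 8 in Pf4, 30 in C1qb, 35 in Mrc1 and 40 in Trem2. Mrc1 was the member with 3 matches, the others beginning 167 and 180 bases before the start. The RefSeq start of Fcgr3 lies 5532 bases inside the outermost GENCODE start of the gene, so its window is that of 1 of its start sites.

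The 35 genes together drew 2213 to 3210 reads per library, which is 0.0221 to 0.0327% of the gene counts. Their summed level was 223.7, 273.9 and 289.4 CPM in controls and 329.6, 285.8 and 323.3 CPM in the knockouts. The means were 262 ± 34.3 and 313 ± 23.7 CPM (SD, n = 3 each), a ratio of 1.19, and 1.22 without Cx3cr1, the member with the most reads. Knockout B lay below control C, so the summed levels of the genotypes overlapped. By genes tested, 32 members passed the filter on low counts, and none of them passed the unpaired edgeR quasi-likelihood test after Benjamini-Hochberg adjustment, against 0.0335% of all 14913 genes tested. DESeq2 also called none of the 17 members to which it gave an adjusted p. At an unadjusted p under 0.05 the same edgeR fit held 8 members higher in the knockout, where 3.19% of all genes were, and 0 lower. Fitted log2 changes were above 0 in 25 members and below 0 in 7, a share of 78.1% above 0 against 50.2% of all genes. Their median was 0.23, against 0.00 over all genes. In the fit paired by letter, 1 member was called higher, Fcgr3, where 0.329% of all genes were.

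Knockout and control libraries did not overlap in 5 of the 32 tested members, and in all 5 the knockout was the higher: Csf1r, Tyrobp, Fcgr3, Laptm5 and Lyz2. Over all genes, 5.89% were apart with the knockout higher and 6.28% with it lower. No member was apart with the knockout lower.

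**Figure D1:**
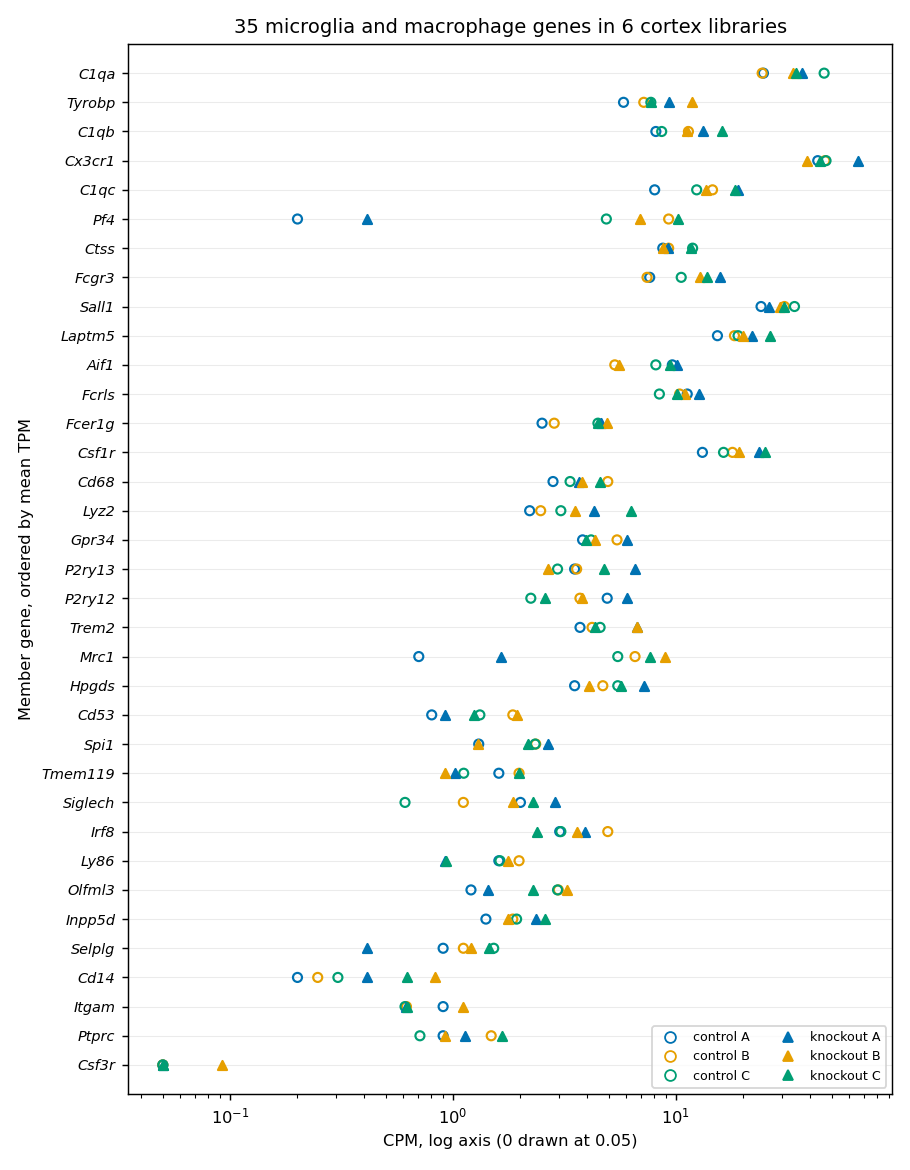
Level of the members in each library, in CPM on a log axis, with open circles for controls, triangles for knockouts, 1 colour per letter, and genes ordered by mean TPM. A level of 0 is drawn at 0.05. The 3 knockout points of Fcgr3 (12.8 to 15.8 CPM) lie above its 3 control points (7.43 to 10.6 CPM), whereas Mrc1 and Pf4 are low in letter A of both genotypes.

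Among the complement chains, C1qa, C1qb and C1qc encode the subunits that build C1q, the recognition part of the classical complement pathway. They lie side by side on GRCm38 chromosome 4, between positions 136880129 and 136898803. C1qa had the highest level of all members per transcript length, at a mean of 111 TPM (read counts scaled by exon length and library size) over the 6 libraries, against 36.4 for C1qb and 25.7 for C1qc.

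C1qa was measured at 24.7, 24.4 and 46.2 CPM in controls and at 37.0, 33.4 and 34.5 CPM in the knockouts. Control C was the highest of the 6 libraries and the knockouts lay between it and the other controls. Its log2 change was 0.13 ± 0.24 (SE). C1qb stood at 8.14, 11.4 and 8.64 CPM in controls and 13.2, 11.2 and 16.1 CPM in knockouts. C1qc stood at 8.03, 14.6 and 12.4 CPM in controls and 19.0, 13.6 and 18.5 CPM in knockouts. For C1qb and C1qc knockouts A and C were the highest 2 libraries and knockout B lay below control B. Their log2 changes were 0.53 ± 0.19 and 0.55 ± 0.21, with adjusted p of 0.574 and 0.621 in edgeR and 0.160 and 0.186 when paired by letter. The share of C1q reads that came from C1qa was 60.4, 48.4 and 68.7% in the controls and 53.4, 57.4 and 50.0% in the knockouts, so these shares overlapped.

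Of the receptors, Csf1r is the receptor for CSF1 and IL-34 on which microglial survival depends. It was measured at 13.2, 17.9 and 16.4 CPM in controls and at 23.6, 19.2 and 25.1 CPM in knockouts. Every knockout exceeded every control, with knockout B the closest to them. The log2 change of 0.52 ± 0.16 had an adjusted p of 0.473 in edgeR, and of 0.0726 when paired by letter. Cx3cr1, the fractalkine receptor, stood at 43.3, 46.7 and 47.2 CPM in controls and at 65.4, 38.8 and 44.4 CPM in knockouts. Knockout A was the highest library and knockout B the lowest, and the log2 change was 0.11 ± 0.16. The purinergic receptors P2ry12 and P2ry13 had log2 changes of 0.19 ± 0.34 and 0.47 ± 0.31, and the lysophospholipid receptor Gpr34 one of 0.10 ± 0.26. Csf3r, the receptor for granulocyte colony-stimulating factor and a gene of neutrophils as well, drew 1 read in all, in knockout B. At these depths 3 reads correspond to 0.278 to 0.371 CPM per library, and values at or below that rest on too few reads to be told from 0.

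A further 7 genes were grouped as adaptors with immunoreceptor tyrosine-based activation motifs (ITAM), partner receptors and brakes, called the ITAM genes for short. All 7 had log2 changes above 0, with a median of 0.50. Fcgr3, the low-affinity receptor for immunoglobulin G whose signal runs through the adaptor chain encoded by Fcer1g, lies on GRCm38 chromosome 1 from 171051174 to 171064935. It was measured at 7.63, 7.43 and 10.6 CPM in controls and at 15.8, 12.8 and 13.8 CPM in knockouts. All 3 knockouts lay above all 3 controls, with means of 14.1 ± 1.55 and 8.54 ± 1.76 CPM (SD, n = 3 each). Its log2 change was 0.72 ± 0.18, with an adjusted p of 0.330 in the unpaired edgeR fit and of 0.0255 in the paired one, in which it rose by 0.73 ± 0.17. Within letters A, B and C the knockout exceeded the control by 1.03, 0.77 and 0.38 on the log2 scale. DESeq2 did not call it, with an adjusted p of 0.228 unpaired and 0.307 paired. Without pair A the paired edgeR call was lost (adjusted p = 0.185), and it held without pair B (0.0351) and without pair C (0.0177). Reads shared with its near-identical neighbour Fcgr2b are not in the counts, so its level is uncertain.

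Tyrobp encodes the adaptor through which TREM2 and SIGLEC-H signal. It stood at 5.83, 7.18 and 7.72 CPM in controls and at 9.35, 11.8 and 7.78 CPM in knockouts. The groups did not overlap, although knockout C exceeded control C by little, and the log2 change was 0.49 ± 0.21 (adjusted p = 0.690 in edgeR). Siglech, which encodes that sialic acid-binding receptor of microglia, was measured at 2.01, 1.11 and 0.61 CPM in controls and at 2.88, 1.85 and 2.28 CPM in knockouts. Knockout B lay below control A, and the log2 change was 0.89 ± 0.41 (adjusted p = 0.708 in edgeR). Trem2, the lipid-sensing receptor of microglia, and Fcer1g each had a log2 change of 0.50, with SE of 0.25 and 0.27. The Fc receptor-like gene Fcrls had 0.17 ± 0.18, and Inpp5d, whose phosphatase SHIP1 restrains this signalling, 0.37 ± 0.33.

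**Figure D2:**
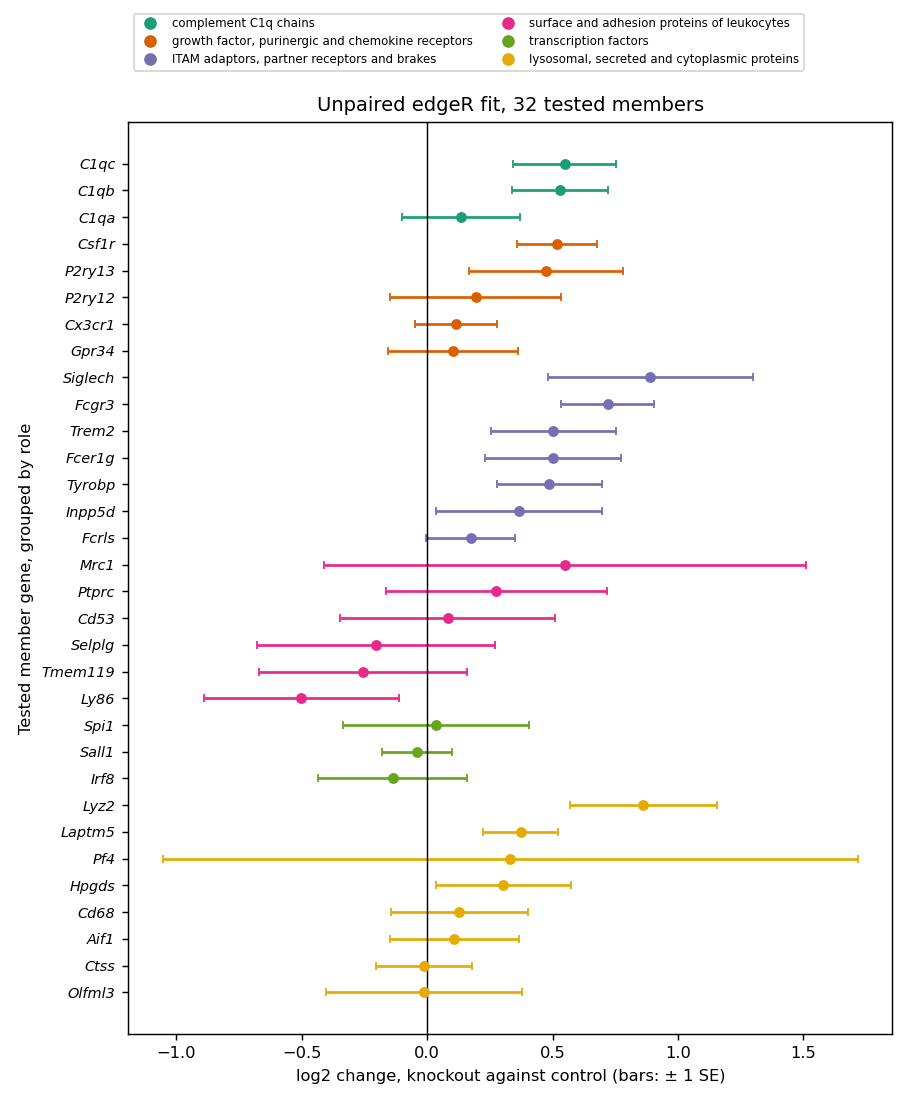
Fitted log2 change of each tested member (knockout minus control, with bars of 1 SE), ordered by role. The 3 complement chains, 5 receptors and 7 ITAM genes all lie above 0, the surface proteins lie on both sides, and Mrc1 and Pf4 have the widest bars.

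The surface and adhesion proteins had a median log2 change of -0.06, with 3 of 6 tested members above 0. Mrc1, the mannose receptor of macrophages at brain borders and vessels, had the most reads of this group. It stood at 0.70, 6.56 and 5.49 CPM in controls and at 1.64, 8.98 and 7.67 CPM in knockouts. Both letter A libraries were far below the other 4, and within each letter the knockout was the higher, by 1.02, 0.44 and 0.47 on the log2 scale. The log2 change of 0.55 ± 0.96 had an adjusted p of 0.948 in edgeR and of 0.344 when paired. Ly86, a partner of a Toll-like receptor homologue, had a log2 change of -0.50 ± 0.39 and the microglial surface protein Tmem119 one of -0.26 ± 0.41. The leukocyte genes Ptprc (CD45), Cd53 and Selplg, which encodes a selectin ligand, had 0.28 ± 0.44, 0.08 ± 0.43 and -0.20 ± 0.47. The remaining pair did not pass the filter. Itgam, the CD11b integrin chain, drew 44 reads at 0.61 to 1.11 CPM, and it shares exon bases on its own strand with Gm49368, which leaves its level uncertain. Cd14, the lipopolysaccharide co-receptor, drew 2, 2 and 3 reads in controls and 4, 9 and 6 in knockouts, where every control is at or below 3 reads.

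The transcription factors showed no common direction. Sall1, which maintains the identity of microglia and is also expressed by neural progenitors, was measured at 24.1, 30.7 and 34.0 CPM in controls and at 26.3, 29.3 and 30.7 CPM in knockouts. The knockouts lay within the range of the controls, and the log2 change was -0.04 ± 0.14. Spi1, which encodes the lineage factor PU.1, had 0.04 ± 0.37 and Irf8, its interferon regulatory factor partner, -0.14 ± 0.30.

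Among the lysosomal, secreted and cytoplasmic proteins, 6 of 8 members had log2 changes above 0, with a median of 0.22. Laptm5, a lysosomal membrane protein of blood-derived cells, was measured at 15.4, 18.3 and 19.0 CPM in controls and at 21.9, 20.1 and 26.3 CPM in knockouts. Lyz2, a lysozyme of macrophages and neutrophils, stood at 2.21, 2.48 and 3.05 CPM in controls and 4.31, 3.52 and 6.32 CPM in knockouts. The groups did not overlap for either gene. Their log2 changes were 0.37 ± 0.15 and 0.86 ± 0.29, with adjusted p of 0.641 and 0.531 in edgeR and of 0.213 and 0.139 when paired by letter. Lyz2 is a near copy of Lyz1, and reads shared by them are not in the counts.

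Pf4, a chemokine of platelets and of border macrophages, was measured at 0.20, 9.28 and 4.88 CPM in controls and at 0.41, 6.94 and 10.3 CPM in knockouts. It was low in letter A of both genotypes, and in control A it lay below the level of 3 reads. Of the 5 platelet markers Ppbp, Gp9 and Treml1 drew 1, 3 and 24 reads in all, but Itga2b drew 319 and Gp1bb 1782. These markers summed to 40.7, 37.6 and 39.3 CPM in controls and to 35.5, 33.8 and 33.4 CPM in knockouts. The part of platelets in the level of Pf4 was not tested. The log2 change of Pf4 was 0.33 ± 1.39. The other members of this group were nearer to 0. Cd68, a lysosomal glycoprotein, had a log2 change of 0.13 ± 0.27 and the protease gene Ctss one of -0.01 ± 0.19. Aif1, which encodes the cytoskeletal marker IBA1, had 0.11 ± 0.26. The prostaglandin D synthase gene Hpgds had 0.30 ± 0.27, and Olfml3, a secreted protein, -0.01 ± 0.39.

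Letters differed in how far the members stood apart. The median over the 32 tested members of the knockout level minus the control level was 0.59 on the log2 CPM scale in letter A, with 29 members higher in the knockout. It was 0.00 in letter B, with 16 higher and 16 lower, and 0.20 in letter C, with 19 higher. Control A was the lowest of all 6 libraries in 18 members and knockout A the highest in 12. Without control A, 19 members had log2 changes above 0 and 13 below. By role, the ITAM genes had medians of 0.67, 0.64 and 0.26 in letters A, B and C, and the receptors had 0.64, -0.27 and 0.20. The difference between these roles was not tested. In the paired edgeR fit without pair B, 4 members passed, C1qb (log2 change 0.81, adjusted p = 0.0105), C1qc (0.89, 0.00103), Csf1r (0.73, 0.00212) and Fcgr3 (0.71, 0.0351). In that fit 161 of all 14966 genes tested were called in either direction, and the share called higher is not given. Letter B held the smallest differences of C1qb, C1qc and Csf1r (-0.02, -0.10 and 0.09). Leaving it out therefore raised their changes, and these calls are not separate support for a difference. Without pair A no member passed, where 228 of 15024 genes were called.

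**Figure D3:**
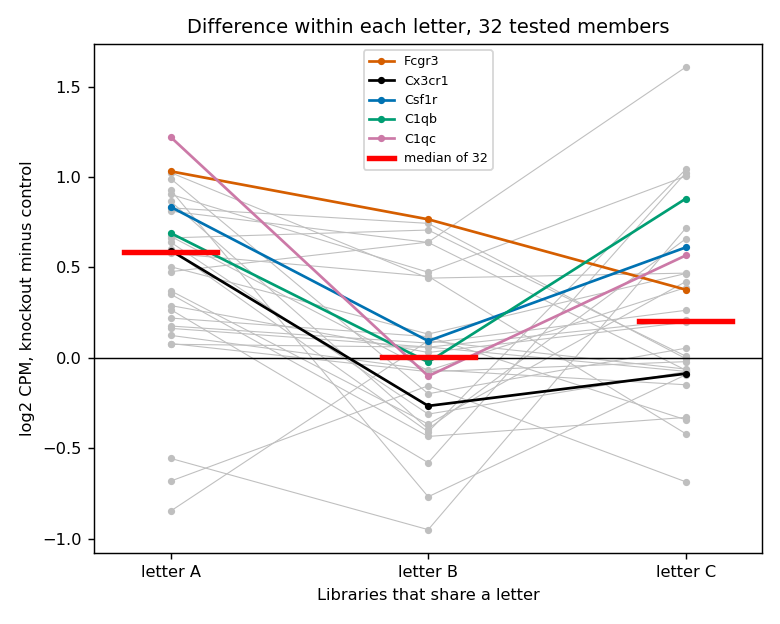
Difference in log2 CPM between the knockout and the control of the same letter, with 1 line per tested member, 5 members coloured and named, and the median over 32 members of each letter as a red bar. Most points of letter A lie above 0 (29 of 32), those of letter B lie on both sides of 0 in equal number, and 19 of letter C lie above 0.

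Letter A also held less RNA of the brain's borders in both genotypes. The 14 border macrophage genes summed to 10.6, 29.0 and 25.4 CPM in controls and to 14.6, 34.98 and 36.0 CPM in knockouts. The 8 markers of meningeal fibroblasts summed to 37.3, 164 and 92.4 CPM in controls and to 36.0, 155 and 148 CPM in knockouts, with Col1a1, their collagen gene, at 1.21 and 0.51 CPM in the letter A libraries and at 9.66 to 25.7 CPM in the others. Without Mrc1 and Pf4 the other 33 members summed to 223, 258 and 279 CPM in controls and to 328, 270 and 305 CPM in knockouts. As in the full sum, knockout B lay between controls B and C, and letter A kept its large difference. The part of meningeal tissue in the levels of Mrc1 and Pf4 was not tested.

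**Figure D4:**
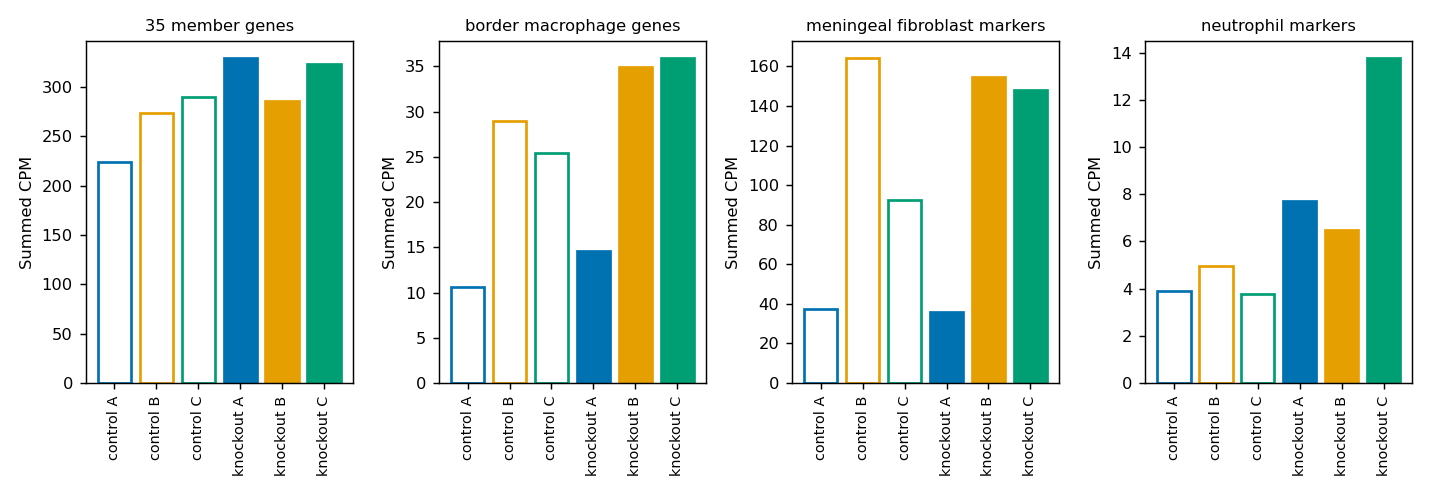
Summed CPM per library of the 35 members, border macrophage genes, meningeal fibroblast markers and neutrophil markers, with 1 bar per library (open for controls, filled for knockouts, 1 colour per letter) and a separate axis from 0 in each panel. The members reach 223.7 to 329.6 CPM, and the border macrophage and meningeal lists are lowest in the letter A libraries of both genotypes.

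Markers of other blood cells and vessels were measured beside the members. The 8 neutrophil markers summed to 3.92, 4.95 and 3.76 CPM in controls and to 7.70, 6.48 and 13.8 CPM in knockouts. Of these, S100a8 and S100a9, the calprotectin chains of neutrophils and monocytes, passed the filter, with log2 changes of 1.25 ± 0.35 and 1.40 ± 0.39 and groups that did not overlap. S100a8 rose in the paired edgeR fit (adjusted p = 0.0336) but was not called in the unpaired one (0.409), and S100a9 had 0.0521 and 0.411. DESeq2 gave neither an adjusted p. The sum is mostly these genes. Ngp, a neutrophil granule gene, stood at 0.50, 1.24 and 0.41 CPM in controls and 0.51, 0.37 and 0.21 CPM in knockouts, and Camp, Retnlg, Ltf and Mpo drew 13, 8, 2 and 2 reads in all. Elane, which defines immature granulocytes, had no read. Lyz2, Fcgr3 and Tyrobp are expressed by neutrophils as well, and the part of these cells in their levels was not tested. The 5 monocyte markers summed to 0.19 to 0.62 CPM and the 8 lymphocyte markers to 0 to 0.61 CPM, so both were near 0 in every library. The 10 endothelial markers summed to 191, 226 and 196 CPM in controls and to 237, 238 and 219 CPM in knockouts, and the 8 mural cell markers to 123, 132 and 125 CPM against 156, 140 and 141 CPM. The part of vessel content in the members' difference was not tested.

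Beyond the members, 10 lists of related genes were read from the same fit, and none of their genes passed the unpaired edgeR test. Of 13 genes of microglial upkeep, 12 were tested and 3 were above 0, with a median log2 change of -0.09. The CSF1 receptor ligands Csf1 and Il34 had log2 changes of -0.08 ± 0.24 and -0.07 ± 0.29, where their receptor had 0.52. The TGF-beta receptor gene Tgfbr2 had 0.53 ± 0.27, and Itgb8, an integrin chain that activates TGF-beta, -0.19 ± 0.15. Among 12 other complement genes 6 were tested, with a median of 0.29 and 5 above 0. C3ar1, the receptor for the C3a fragment, had a log2 change of 0.56 ± 0.38. C3 itself, the substrate downstream of C1q, did not pass the filter, at 0.370 to 1.04 CPM.

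Of 20 other genes of microglia in healthy brain, 18 were tested, 10 of them above 0 and 8 below, with a median log2 change of 0.01. Crybb1, a crystallin gene expressed by young microglia, was the one with the smallest p. It stood at 0.70, 0.62 and 1.32 CPM in controls and at 2.36, 2.22 and 1.97 CPM in knockouts. The groups did not overlap, and the log2 change of 1.28 ± 0.39 had an adjusted p of 0.473 in edgeR and of 0.139 when paired. Runx1, a factor of blood-cell development, had 1.04 ± 0.56. Of 23 genes of myeloid signalling and cytoskeleton 15 were tested and 9 were above 0 (median 0.17). Lyn, a kinase that phosphorylates ITAMs, had 0.40 ± 0.22, Ncf1, a subunit of the phagocyte oxidase, 0.70 ± 0.35, and the ITAM-bound kinase Syk 0.07 ± 0.29.

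Of 22 reactive and white-matter microglia genes 16 were tested and 12 were above 0, with a median log2 change of 0.03. Lpl, a lipoprotein lipase of reactive microglia that neurons also express, went the other way. It was measured at 152, 132 and 109 CPM in controls and at 95.6, 68.6 and 55.5 CPM in knockouts. It was lower in the knockout of every letter, with a log2 change of -0.84 ± 0.20, and it fell in the paired edgeR fit (adjusted p = 2.89e-07) and in DESeq2 (0.00119), but not in the unpaired edgeR fit (0.419). In which cells its level differed was not measured. The 14 border macrophage genes had 6 tested and 6 above 0 (median 0.63), Dab2 with 0.28 ± 0.23 and F13a1 with 1.18 ± 1.22.

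Of 14 engulfment genes 13 were tested and 9 were above 0, with a median log2 change of 0.06. Adgrb1, an engulfment receptor with a large neuronal expression, had -0.38 ± 0.13 and fell in the paired edgeR fit (adjusted p = 0.0362). DESeq2 did not call it, with an adjusted p of 0.349 unpaired and 0.0568 paired. It stood at 240, 312 and 248 CPM in controls and at 202, 235 and 180 CPM in knockouts, groups that did not overlap. Of 15 inflammatory cytokines and pattern receptors 4 passed the filter (median 0.01), Il18 with 0.05 ± 0.15 and the Toll-like receptor adaptor Myd88 with -0.12 ± 0.24. Tnf and Il1b, the classic cytokines of activated macrophages, stood at no more than 0.10 and 0.21 CPM. Of 13 interferon response genes 5 were tested and 0 were above 0 (median -0.12), and Stat2, a factor that relays interferon signals, had -0.14. Control B stood apart here: the list summed to 54.8 CPM in it and to 22.4 to 31.2 CPM in the other 5 libraries. Within letters A and C, 4 of the 5 tested genes were higher in the knockout (median differences of 0.53 and 0.19 on the log2 CPM scale), and within letter B 0 were (-0.74). Of 8 antigen presentation genes 3 were tested (median 0.10), with the class I genes H2-D1 and H2-K1 at 0.18 and 0.10.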

How the data were processed

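The 6 tables hold raw counts of reads per gene as the authors deposited them, 1 table per library, laid out as STAR writes them. The submitters' processing notes name STAR 2.5.4 with GRCm38 and mm10, and libraries were strand-specific and polyA-selected (Lexogen SENSE) per the labels' protocols. The annotation release is not given in the sources used here. The summary lines, among them reads outside annotated exons, were kept out of library sizes. Tables list 0 multi-mapping reads, and reads shared by near-identical copies are uncounted. The strand column used held 17.5 to 19.2 times the reads of the other, and reads on the opposite strand were 12.9 to 21.2% of both strands over the members. Csf1r, Cx3cr1 and P2ry12 overlap exons of Hmgxb3, Gm33858 and Med12l on the opposite strand. Symbols and coordinates came from GENCODE M21, in which 52403 identifiers were found.

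Counts were tested in R 4.3.3 with edgeR 4.0.16 (filterByExpr, 14913 genes, TMM, robust quasi-likelihood F-test, two-sided, Benjamini-Hochberg over all genes, threshold 0.05). The unpaired fit was tried on simulated counts that held no letter effect, so that trial does not cover the letter differences in these data. CPM uses TMM-scaled totals, and TPM was computed from those counts with GENCODE exon lengths. Total counts set the precision, and the lowest tested members rest on 64 and 65 reads. DESeq2 1.42.0, the letter as a block, other scalings, no filter, a stricter filter, either strand and leaving out each library were alternatives. The labels do not say what a letter marks. It was taken as a pairing because deviations from the group means correlated by 0.417, 0.342 and 0.211 between libraries of the same letter. Between different letters they correlated by -0.0310 at most. Deviations within a group cancel across its libraries, so the values between different letters are not separate evidence of pairing. The replicates are separate samples per the labels.

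Values in every library are given for members with an unadjusted p under 0.05 or a call in any fit and for the member with the highest mean CPM of its role. From each other list come the called genes, otherwise those with the smallest p, and some of these are not reported here. Csf1, Il34, Syk, C3, Tnf, Il1b, Cd14, Ngp, Camp, Retnlg, Ltf and Mpo were named beside these after their values were seen. So were Ppbp, Gp9, Treml1, Itga2b, Gp1bb, Col1a2 and Pdgfra. The members and all lists were chosen with earlier results of these data known.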

Additional observations from a re-analysis of the deposited data

How the results depend on the processing

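The number of genes called among all genes, 5 in the unpaired edgeR fit, was 126 with the letter as a replicate block, 25 in DESeq2, 28 in DESeq2 with that block (an alternative added after seeing the data), 10 with library totals in place of TMM and 71 without the low-count filter. It ranged from 1 to 228 when single libraries or pairs were left out. Members called higher numbered 1 with the replicate block, Fcgr3, and 0 to 4 with libraries or pairs left out. The block changed the call of no other member, and 0 members were called lower in any fit. Members whose groups did not overlap numbered 5 in the main setting, 7 with library totals in place of TMM and 8 with reads of either strand. The part of the strand alone in the last count was not tested. No share of all genes is given for these alternatives, so the counts of 7 and 8 are not a result about the members. With library totals, which moved the median of all genes to 0.04, Sall1, Ctss and Olfml3 turned to 0.00077, 0.028 and 0.034. Leaving out single libraries or pairs, log2 changes that turned sign ranged from -0.023 to 0.52 for C1qa, -0.17 to 0.27 for Cx3cr1, -0.18 to 0.49 for P2ry12, -0.20 to 0.31 for Gpr34, -0.87 to 0.12 for Tmem119, -0.20 to 0.77 for Ptprc, -0.26 to 0.38 for Cd53, -0.52 to 0.16 for Selplg, -0.44 to 0.43 for Spi1, -0.40 to 0.13 for Irf8, -0.17 to 0.072 for Sall1, -0.039 to 0.42 for Cd68, -0.15 to 0.14 for Ctss, -0.086 to 0.34 for Aif1, -0.061 to 0.53 for Hpgds, -0.32 to 1.22 for Pf4, -0.34 to 0.24 for Olfml3, -0.050 to 0.21 for Il18 and -0.28 to 0.10 for Myd88. The members' median stayed above 0 in every fit, from 0.16 to 0.40. The cause of these shifts was not tested. Depth limits the members: the lowest tested members rest on 64 and 65 reads over 6 libraries, and with 3 pups per genotype and letter differences of this size a small change could not be told from none.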

Other observations

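Several genes of reactive microglia were too low for the filter, and a pair of them was singled out here after their values were seen. Itgax, the CD11c integrin chain, drew 1, 1 and 0 reads in the controls (A, B, C) and 10, 10 and 2 in knockouts. Every control is below 3 reads, so no fold is given. Without the filter it did not pass edgeR's test (Benjamini-Hochberg adjusted p = 0.176). Clec7a, a receptor for fungal glucans, drew 4, 5 and 4 reads in controls and 7, 19 and 12 in knockouts, with a log2 change of 1.39 ± 0.58 (SE) and an adjusted p of 0.608. Cst7, another low gene of that list, drew 7 reads in all controls together and 1 in the knockouts.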
